A study of Mus musculus with 16 samples.

Results

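The comparison of infarcted with sham-operated PKM2fl/fl hearts covers 20568 of the 55492 genes listed by the study, in 6 of its 16 libraries. The genes were those with a mean of at least 10 normalized read counts over these 6 libraries. A normalized read count is the number of reads on a gene divided by the DESeq2 size factor of its library. The study set hearts of mice without PKM2, a splice form of the glycolytic enzyme pyruvate kinase, against hearts that make it, untouched or on the third day from a sham operation or a myocardial infarction (MI). All 6 mice of this comparison were male, on a C57BL/6 background and 8-12 weeks old. PKM2fl/fl mice carry loxP sites around the exon of *Pkm* that is particular to PKM2, and with no Cre they still make the protein. In the 3 MI mice the left anterior descending coronary artery was tied for good, and the 3 sham mice went through the same operation but kept an open artery. Left ventricles were collected 3 days after surgery, frozen and pulverized, and RNA was sequenced after removal of ribosomal RNA. Each library came from its own mouse. The labels do not say how much of a sample was infarct, border or remote muscle, and in such bulk tissue fewer cells of a type and less RNA per cell cannot be told apart.

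A permanent coronary occlusion kills the muscle it supplies within hours. Neutrophils and then monocytes enter the dead tissue, where macrophages clear debris and resident fibroblasts become matrix-secreting myofibroblasts that build the scar. Surviving cardiomyocytes, which in the adult burn mainly fatty acids, are known to lower oxidative metabolism and to switch on natriuretic peptides and other genes of the fetal heart.

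The 6 libraries held 23236765 to 71855101 reads. Reads on ribosomal RNA (rRNA) and the loci that resemble it took 23.1%, 15.9% and 28.1% of the reads in the sham hearts and 49.4%, 20.2% and 48.6% in the MI hearts (exact permutation test, two-sided, p = 0.3, where 3 hearts against 3 allow no p under 0.1). Without the mitochondrial rRNA genes the shares were 1.00%, 0.208% and 1.95% in the sham hearts and 32.3%, 2.30% and 28.5% in the MI hearts, so that every MI heart lay above every sham heart (p = 0.1 by the same exact test). The cardiomyocyte transcripts *Myh6*, *Tnnt2* and *Actn2* were abundant in every heart, at no less than 46178, 12666 and 7400 normalized counts. *Ddx3y*, on the Y chromosome, had 1244 to 2510 normalized counts in all 6 hearts and *Xist* at most 47.1. The skeletal muscle myosins *Myh1*, *Myh2* and *Myh4* and the fat cell genes *Adipoq* and *Plin1* stayed under a mean of 10.

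At 3 days after MI, 2630 genes were higher than in sham hearts and 2171 were lower (limma on log2 of the value plus 1, called where the change was 2-fold or more and its Benjamini-Hochberg adjusted p lay below 0.05). These called genes are 12.8% and 10.6% of the 20568 tested. All MI hearts lay above all sham hearts for 2593 of the genes called higher and below them for 2153 of those called lower, against 30.3% and 28.8% of all genes tested without regard to the call. The rises were larger than the falls. The median log2 fold change was 1.71 among the genes called higher and -1.41 among those called lower, and 943 genes rose by at least 4-fold against 244 that fell as far. The split between directions depended on the scaling: it was 3388 higher and 1487 lower when libraries were scaled to the reads outside rRNA-related loci, and 2101 and 2778 when scaled to all reads. Those scalings moved the median log2 fold change of all genes from 0.0054 to 0.21 and -0.17. Among the genes called higher, 429 had a sham mean under 10.

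**Figure D1:**
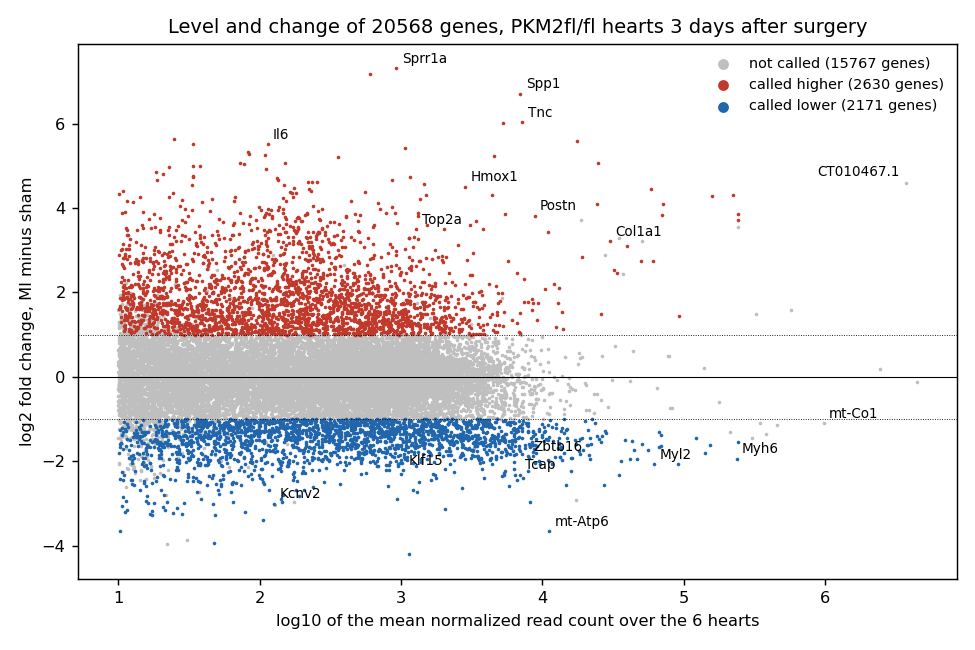
Each point is 1 of the 20568 genes, with the log10 of its mean normalized read count over the 6 hearts on the x axis and its log2 fold change (MI minus sham) on the y axis. Genes called higher (2630, red) reach a log2 fold change of 7.31 at *Sprr1a*, while most genes called lower (2171, blue) stay above -3. Dotted lines mark a 2-fold change.

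The genes that rose most joined epithelial, matrix, myeloid and growth factor genes. *Sprr1a*, a small proline-rich protein best known from keratinizing epithelium and from injured neurons and muscle, had 11.8, 22.6 and 3.92 normalized counts in the sham hearts and 2090, 1344 and 2092 in the MI hearts. It rose by 7.31 on the log2 scale (standard error 0.51, adjusted p = 0.00012). *Spp1*, which encodes osteopontin, a matrix and cytokine-like protein of macrophages, had 157, 320 and 41.2 normalized counts in sham hearts and 15104, 9912 and 16319 in MI hearts. That is a log2 fold change of 6.71. *Tnc*, the matricellular protein tenascin C, went from 169, 477 and 117 to 17349, 10207 and 15031 normalized counts, a log2 fold change of 6.03. For all 3 genes, sham heart 2 was the highest of the sham hearts and MI heart 2 the lowest of the MI hearts, and the groups stayed far apart. *Il6*, the acute-phase cytokine, had 2.35, 6.16 and 2.94 normalized counts in sham hearts and 297, 113 and 263 in MI hearts (log2 fold change 5.51). *Arg1*, the arginase of wound macrophages, had 30.6, 131 and 14.7 against 1968, 718 and 3552 (log2 fold change 5.41). *Mmp12*, the macrophage elastase, had 30.0, 17.5 and 8.82 against 774, 396 and 917 (log2 fold change 5.21). Others among the 20 largest rises were *Hmga2*, a chromatin protein of embryonic cells, *Ereg*, an EGF receptor ligand, *Cemip*, which breaks down hyaluronan, *Adam8*, a metalloprotease of leukocytes, and *Cd5l*, a secreted macrophage protein, with log2 fold changes of 5.33, 5.06, 4.63, 4.66 and 4.91. *Cd5l* differed widely among the MI hearts, at 40.2, 123 and 488 normalized counts. *Gm42793* overlaps *Spp1* on the same strand and *8030451A03Rik* overlaps *Tnc* on the opposite strand, and as the use of strand in counting is not stated, their log2 fold changes of 7.18 and 6.02 cannot be told apart from those of their neighbours.

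**Figure D2:**
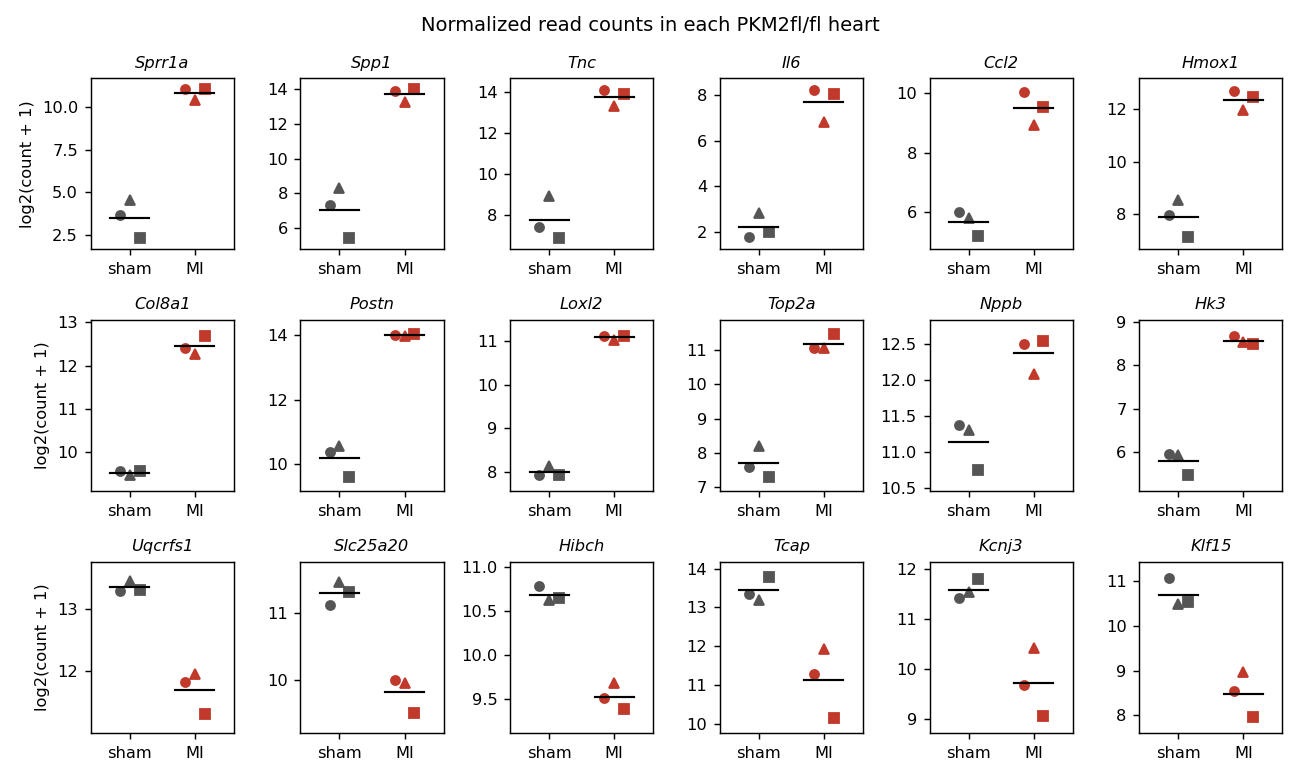
Log2 of the normalized read count plus 1 in each PKM2fl/fl heart for 18 genes, with sham hearts in grey, MI hearts in red, a circle, triangle and square for replicates 1, 2 and 3 (the labels give no pairing by number) and a bar at the mean. The groups do not overlap in any panel, and MI heart 3 (square) is the lowest MI heart for all 6 genes of the bottom row.

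The promoter of *Sprr1a*, the gene with the largest rise, is shown because it holds a pair of matches to the AP-1 motif TGANTCA and a TATA box (TATAAA), both in capitals. The sequence is from RefSeq on GRCm38.p6, from 250 bases before to 50 bases after the start of the gene, at chr3:92485832-92486131 on the minus strand.
Sprr1a: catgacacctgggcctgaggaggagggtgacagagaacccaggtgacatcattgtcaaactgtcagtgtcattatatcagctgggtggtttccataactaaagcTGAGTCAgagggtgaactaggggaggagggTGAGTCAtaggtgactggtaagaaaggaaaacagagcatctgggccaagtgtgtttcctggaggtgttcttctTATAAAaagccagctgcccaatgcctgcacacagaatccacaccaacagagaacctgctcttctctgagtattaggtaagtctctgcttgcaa
The AP-1 matches begin 146 and 116 bases before the start and the TATA box 43 bases before it. Searched on both strands, TGANTCA was in 8.56% of the promoter windows of genes called higher, 6.97% of those of genes called lower, 5.89% of those of all genes tested and 7.81% of all windows of this length in the reference table. TATAAA was in 11.7%, 9.91%, 8.21% and 13.6%, so both called sets lay above the genes tested and below the whole table. Such matches describe the letters of the window and do not show that a factor binds there.

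The largest falls were smaller and held transcripts of the mitochondrial genome, ion channel genes and muscle enzymes. *mt-Atp6*, a subunit of ATP synthase encoded in the mitochondrial genome, had 25579, 11919 and 24895 normalized counts in sham hearts and 1758, 1585 and 1375 in MI hearts (log2 fold change -3.65, standard error 0.28, adjusted p = 0.00014). *mt-Nd4l* and *mt-Co3* fell by 3.14 and 2.96 on the log2 scale. All 3 overlap neighbours on the same strand of that genome (*mt-Atp6* overlaps *mt-Atp8* and *mt-Co3*), so the split of reads among them is uncertain. *Kcnv2*, a modifier subunit of voltage-gated potassium channels, went from 233, 260 and 172 to 52.6, 36.4 and 9.15 normalized counts (log2 fold change -3.01). *Ces1d*, a carboxylesterase of lipid metabolism, had 1609, 1592 and 1558 in sham hearts and 431, 332 and 66.8 in MI hearts (log2 fold change -2.89). MI heart 3 was the lowest heart for both genes, and no MI heart reached the lowest sham heart. *Strit1*, which encodes a micropeptide that raises activity of the sarcoplasmic calcium pump, fell by 2.81 on the log2 scale. *Cacna1s*, the pore of the skeletal L-type calcium channel, fell by 2.67, and *Mylk4*, a myosin light chain kinase family member, by 2.64. *Gnb3*, a G protein beta subunit, had 230, 204 and 160 normalized counts against 52.6, 28.9 and 17.4 (log2 fold change -2.67).

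Genes of oxidative metabolism fell nearly without exception. Of 52 nuclear genes of the respiratory chain and ATP synthase, 50 were called lower and 0 higher, with a median log2 fold change of -1.54 beside 0.0054 over all genes tested. Of 31 genes of fatty acid uptake and oxidation, 28 were called lower (median -1.62), as were 24 of 26 genes of the TCA cycle (median -1.42). Of 25 genes of branched-chain amino acid, ketone and creatine metabolism, 20 were called lower (median -1.26). In no list was any gene called higher. All 52 respiratory chain genes and all 26 TCA cycle genes lay below sham in every MI heart, the 4 genes of these lists that were not called included.

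*Uqcrfs1*, the Rieske iron-sulfur subunit of complex III, had 10007, 11111 and 10040 normalized counts in sham hearts and 3630, 3948 and 2542 in MI hearts (log2 fold change -1.65, standard error 0.18, adjusted p = 0.00039). *Cox7a1*, the muscle form of a complex IV subunit, had the largest fall of the list among the genes called, from 7051, 10807 and 8479 to 2735, 2778 and 815 (log2 fold change -2.23). *Atp5pb*, in the stalk of ATP synthase, fell less, from 14685, 15294 and 14510 to 6523, 6846 and 5040 (log2 fold change -1.29). For each of these genes MI heart 3 was the lowest. *Slc25a20*, which carries acylcarnitines into mitochondria, had 2211, 2801 and 2525 in sham hearts and 1025, 996 and 731 in MI hearts (log2 fold change -1.46, adjusted p = 0.00040). *Hadhb*, the thiolase subunit of the trifunctional protein of beta-oxidation, went from 20465, 21259 and 16230 to 5740, 6799 and 3435 (log2 fold change -1.91). *Cpt1b*, the carnitine palmitoyltransferase of muscle mitochondria, fell by 1.69 on the log2 scale, whereas *Cpt1a*, the form best known from liver, had a log2 fold change of 0.39 (adjusted p = 0.084). The other fatty acid genes that were not called were *Ucp3* and *Pdk4*, with log2 fold changes of -1.36 and -0.76 (adjusted p = 0.089 and 0.17). *Pdk4*, a fasting-responsive kinase that holds back pyruvate oxidation, had 3383, 11466 and 5726 normalized counts in the sham hearts, so the sham hearts alone spanned more than the groups differed.

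In the TCA cycle, *Sdhd*, a membrane anchor of succinate dehydrogenase, had 5486, 5318 and 5376 normalized counts in sham hearts and 2455, 2518 and 1695 in MI hearts (log2 fold change -1.30, standard error 0.16, adjusted p = 0.00073). *Pdhb*, a subunit of the pyruvate dehydrogenase complex that feeds the cycle, went from 8491, 8318 and 8913 to 3317, 3493 and 1897 (log2 fold change -1.61). *Hibch* and *Hibadh*, which act in sequence in valine breakdown, both fell by 1.16 on the log2 scale. *Hibch* had 1771, 1580 and 1603 normalized counts in sham hearts and 728, 821 and 668 in MI hearts, among the tightest of these falls. *Ckm*, the muscle creatine kinase, fell by 2.23, from 22468, 28016 and 26950 to 8530, 7929 and 2403, while *Ckb*, the brain-type enzyme, had a log2 fold change of 0.25 (adjusted p = 0.15).

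Glycolysis did not move as a block. Of 28 genes tested, 6 were called higher and 9 lower, with a median log2 fold change of -0.17 (0.04 when scaled to reads outside rRNA-related loci). The genes called lower included muscle forms and the glucose transporter of muscle and fat: *Slc2a4* (-1.86), *Pfkm* (-1.81), *Eno3* (-2.0), *Pgam2* (-1.63) and the heart-type lactate dehydrogenase *Ldhb* (-2.07, from 18140, 20244 and 17473 to 5781, 6041 and 2503 normalized counts). The genes called higher included widely expressed counterparts of the same steps: *Slc2a1* (log2 fold change 1.54), *Eno1* (1.33) and *Pgam1* (1.12). *Eno1* went from 1667, 1683 and 1656 to 4373, 3144 and 5393 normalized counts. *Hk3*, the hexokinase of myeloid cells, rose from 61.7, 60.6 and 43.1 to 410, 369 and 361 (log2 fold change 2.78, standard error 0.19, adjusted p = 0.00011). *Slc16a3*, the lactate exporter MCT4, rose from 104, 167 and 100 to 782, 438 and 988 (log2 fold change 2.52), and the lactate importer *Slc16a1* fell by 1.03 on the log2 scale. *Ldha* had a log2 fold change of -0.01 (adjusted p = 0.94).

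*Pkm*, with both of its splice forms counted together, had 7779, 9444 and 8764 normalized counts in sham hearts and 12076, 9576 and 10560 in MI hearts. Each MI heart was above each sham heart, by a small margin at MI heart 2, with a log2 fold change of 0.31 (adjusted p = 0.13, standard error 0.15). Among 28 targets and regulators of hypoxia-inducible factor (HIF), 6 were called higher and 6 lower (median -0.09, and 0.12 when scaled to reads outside rRNA-related loci). *Hif1a* itself rose from 2402, 2319 and 2334 to 4950, 4023 and 5503 normalized counts (log2 fold change 1.02, adjusted p = 0.00091). *Egln1*, the prolyl hydroxylase that marks HIF for degradation, fell from 7296, 7801 and 7509 to 3379, 3606 and 1923 (log2 fold change -1.40). The growth factors *Vegfa* and *Vegfb*, both made by cardiomyocytes, fell by 1.01 and 1.47 on the log2 scale. The carbonic anhydrases *Car9* and *Car12* rose by 1.29 and 2.32, from low counts of at most 23.6 and 5.88 in sham hearts.

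The contractile apparatus fell with the mitochondria. Of 30 genes of the sarcomere and Z disc, 26 were called lower and 0 higher (median log2 fold change -1.47). *Tcap*, the titin cap of the Z disc, had 10468, 9330 and 14125 normalized counts in sham hearts and 2496, 3927 and 1138 in MI hearts (log2 fold change -2.32, standard error 0.40, adjusted p = 0.0028). *Myl2*, the ventricular regulatory light chain, went from 94043, 106311 and 94564 to 28865, 33356 and 13324 (log2 fold change -2.07). *Myoz2*, which ties calcineurin to the Z disc, went from 14374, 17140 and 16875 to 6299, 7759 and 3744 (log2 fold change -1.5). *Ttn*, the giant spring protein titin, was below sham in every MI heart at 192107, 204086 and 104096 against 460572, 409502 and 444011 normalized counts. Its log2 fold change of -1.45 missed the threshold in limma (standard error 0.55, adjusted p = 0.063). The count-based tests edgeR and DESeq2 called it lower (adjusted p = 0.023 and 1.3e-07). The other genes not called were *Actc1*, *Pdlim5* and *Synpo2l*, with log2 fold changes of -0.74, -0.31 and 0.31.

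The promoter of *Myoz2* is shown because it is 1 of the sarcomere promoters with a match to the MEF2 motif (CTA and TAG with any 4 bases between them, in capitals), which begins 33 bases before the start. It lies at chr3:123034938-123035237 on the minus strand (RefSeq, GRCm38.p6).
Myoz2: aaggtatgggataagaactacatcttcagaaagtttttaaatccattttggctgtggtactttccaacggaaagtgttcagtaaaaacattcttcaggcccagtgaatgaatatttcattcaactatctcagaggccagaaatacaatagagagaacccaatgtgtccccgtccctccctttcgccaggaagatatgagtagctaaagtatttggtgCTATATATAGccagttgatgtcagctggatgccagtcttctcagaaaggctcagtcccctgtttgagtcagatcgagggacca
The motif was in 17.6% of 34 promoter windows of 24 sarcomere genes, in 5.19% of the windows of genes called lower, 2.29% of those called higher, 3.3% of those of all genes tested and 3.69% of all windows.

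Calcium handling and membrane channels followed unevenly. In calcium handling, 11 of 24 genes were called lower and 1 higher (median -1.06). *Atp2a2*, the calcium pump SERCA2, had 218722, 210269 and 220038 normalized counts in sham hearts and 81144, 88610 and 33144 in MI hearts (log2 fold change -1.80, adjusted p = 0.013). Its inhibitor *Pln* (phospholamban) and the release channel *Ryr2* fell by 1.67 and 1.37. *Jph1*, which helps hold the T-tubule to the sarcoplasmic reticulum, fell from 1015, 955 and 917 to 476, 483 and 327 (log2 fold change -1.18). The gene called higher was *Fkbp1b*, the calstabin that binds *Ryr2*, at 23.5, 38 and 29.4 against 85.0, 52.5 and 102. Of 26 potassium, sodium and pacemaker channel genes, 17 were called lower and 0 higher (median -1.51). *Kcnj3* and *Kcnj5*, which form the acetylcholine-gated channel, had log2 fold changes of -1.86 and -1.6, and *Kcnd3* and *Kcnip2* of the transient outward current had log2 fold changes of -1.61 and -2.32. *Kcnip2* had 2712, 2855 and 2905 normalized counts in sham hearts and 832, 992 and 217 in MI hearts.

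Of 20 intercalated disc genes, 6 were called lower and 0 higher (median -0.48). *Ctnna3*, the alpha-T-catenin of heart junctions, fell from 12751, 11334 and 13928 to 3900, 6297 and 2923 normalized counts (log2 fold change -1.6), and the desmosomal genes *Dsg2* and *Dsp* had log2 fold changes of -1.42 and -1.45. *Gja1*, which encodes connexin 43, had a log2 fold change of -0.58 (adjusted p = 0.058). In the stress and fetal gene list, 5 of 25 were called higher and 4 lower (median 0.17, and -0.01 when scaled to all reads). *Nppb*, the B-type natriuretic peptide, rose from 2645, 2520 and 1709 to 5794, 4309 and 5940 normalized counts (log2 fold change 1.23, adjusted p = 0.0021), and *Nppa* rose by 1.28. *Gdf15*, a stress cytokine, rose from at most 22.6 to 223, 81.4 and 106 (log2 fold change 2.84). *Actn1*, the non-muscle alpha-actinin, rose from 1537, 1572 and 1434 to 5715, 4699 and 5140 (log2 fold change 1.77). The fetal skeletal actin *Acta1* differed among MI hearts, at 11679, 4450 and 4865 against 4460, 5015 and 4742 in sham hearts, and was not called. *Myh7*, the beta-myosin of fetal ventricle, fell by 1.81 on the log2 scale with overlapping groups: sham hearts had 40607, 11364 and 34926 normalized counts and MI hearts 5777, 12894 and 4981. Sham heart 2 was also the lowest sham heart for the atrial light chain *Myl7*, at 90.3 normalized counts against 401 and 405 in sham hearts 1 and 3, and *Sln* at 28.7 against 170 and 208. The atrial list as a whole summed to 15911 to 21313 normalized counts in sham hearts and 11331 to 13917 in MI hearts, with 1 of 9 genes called, and the part of atrial tissue in the *Myh7* values was not tested.

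Regulators of the cardiomyocyte program fell as well. Of 30 cardiac and metabolic transcription regulators, 18 were called lower and 0 higher (median -1.23). *Klf15*, a glucocorticoid-responsive regulator of lipid and amino acid use, had 2157, 1440 and 1485 normalized counts in sham hearts and 371, 497 and 249 in MI hearts (log2 fold change -2.21, standard error 0.26, adjusted p = 0.00055). *Ppargc1a*, *Ppara* and *Esrrg*, which drive mitochondrial and fatty acid genes, had log2 fold changes of -1.92, -1.95 and -1.53. *Zbtb16* fell from 15250, 10848 and 11088 to 3416, 3543 and 3035 (log2 fold change -1.88), with the MI hearts close together. Among developmental factors, *Tbx5*, *Hand2* and *Nkx2-5* were called lower (-1.62, -1.35 and -1.14), while *Gata4*, *Mef2c* and *Mef2a* had log2 fold changes of -0.57, -0.15 and -0.01. In the circadian clock list 7 of 16 genes were called lower and 0 higher (median -0.88). *Ciart*, *Hlf*, *Dbp* and *Tef* had log2 fold changes of -2.39, -1.92, -1.72 and -1.39, and *Per3* and *Nr1d2* were also called lower (-1.22 and -1.07). *Arntl*, the core activator BMAL1, had a log2 fold change of 0.43 (adjusted p = 0.27). *Dbp* had 971, 882 and 1693 normalized counts in sham hearts and 250, 733 and 219 in MI hearts, and *Ciart* 174, 137 and 190 against 15.5, 55.7 and 32.9. The time of day of tissue collection is not given in the labels. Of 33 injury-linked transcription factors, 17 were called higher and 0 lower (median 1.08). *Runx1*, active in injured muscle and in blood cells, rose from 867, 990 and 577 to 3792, 3027 and 4608 (log2 fold change 2.25), and *Runx2* and *Runx3* rose by 1.94 and 2.13. *Sox9*, a regulator of matrix genes, had 43.5, 67.7 and 54.9 normalized counts against 281, 266 and 267 (log2 fold change 2.29). *Snai1*, a repressor active in mesenchymal cells, rose by 2.50 and *Myc* by 2.71.

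**Figure D3:**
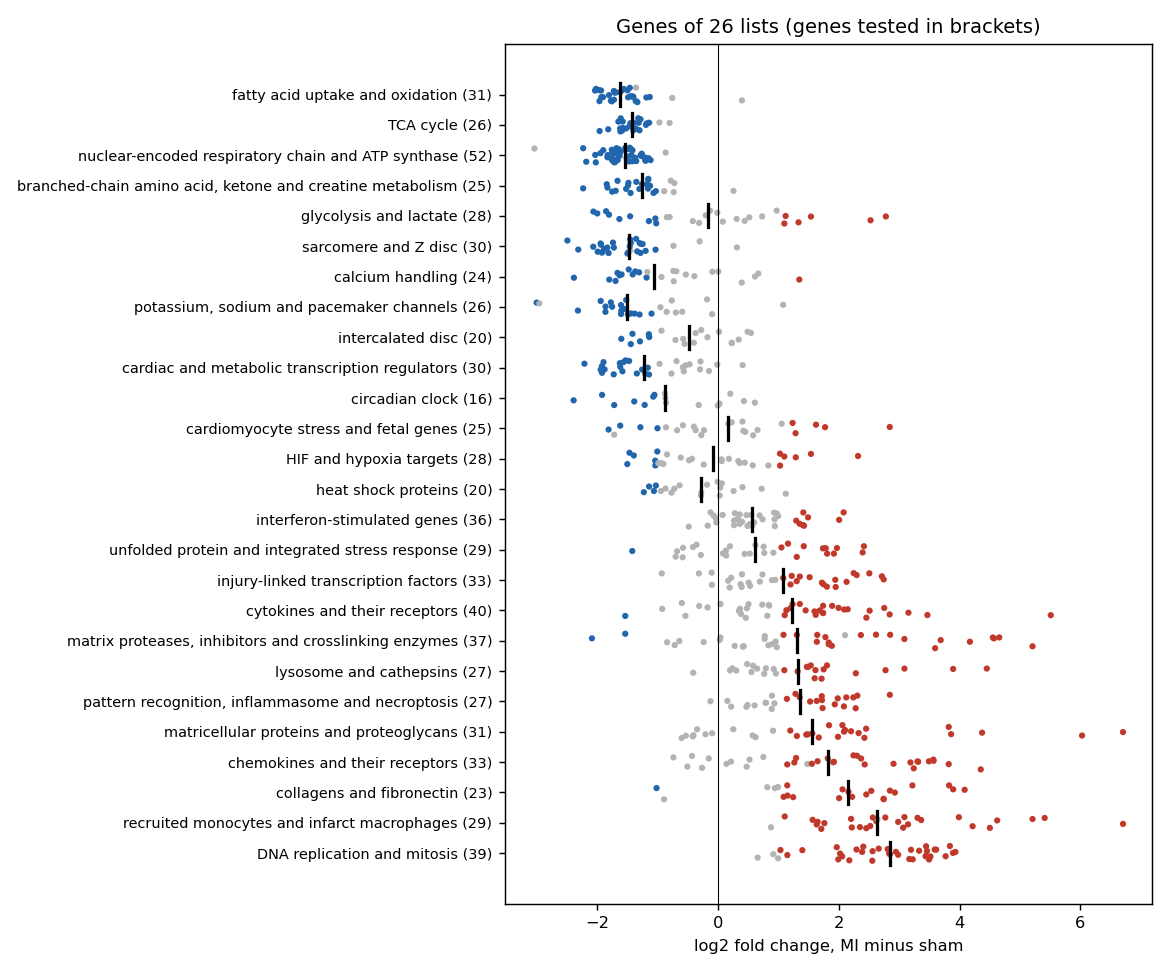
Each point is a tested gene placed by its log2 fold change (MI minus sham) within 1 of 26 gene lists, red where called higher, blue where called lower and grey where not called, with a black bar at the median of the list. The lists of mitochondrial metabolism hold no red point (medians -1.26 to -1.62), and the DNA replication and mitosis and macrophage lists hold no blue point (medians 2.85 and 2.64).

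Matrix genes rose together. Of 23 collagens and fibronectin, 18 were called higher and 1 lower (median log2 fold change 2.16). *Col8a1*, a short-chain collagen of vessels and scars, had 757, 706 and 757 normalized counts in sham hearts and 5449, 4962 and 6608 in MI hearts (log2 fold change 2.93, standard error 0.13, adjusted p = 9.0e-05). The fibrillar collagens *Col1a1* and *Col3a1* rose by 3.22 and 2.54, and *Fn1* (fibronectin) by 4.08, from 2409, 4131 and 1792 to 38087, 35428 and 64358. *Col15a1*, of basement membranes, reached 7675, 7700 and 7594 in the MI hearts against 1410, 1835 and 1945. The list's gene called lower was *Col4a3* (-1.02), and its partner *Col4a4* had a log2 fold change of -0.90, while *Col4a1* rose by 1.15. Of 31 matricellular proteins and proteoglycans, 20 were called higher and 0 lower (median 1.56). *Postn*, the periostin of activated fibroblasts, rose from 1328, 1532 and 772 to 16450, 15981 and 16845 (log2 fold change 3.82, adjusted p = 0.00011), and *Ccn4* from 38.8, 71.9 and 45.1 to 1020, 904 and 1281 (log2 fold change 4.37). *Dcn* (decorin), abundant in resting fibroblasts, had a log2 fold change of -0.53.

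Among matrix proteases, their inhibitors and collagen-crosslinking enzymes, 19 of 37 were called higher and 2 lower (median 1.30). *Loxl2*, a lysyl oxidase that crosslinks collagen, had the smallest p-value of all genes tested, with 242, 279 and 243 normalized counts in sham hearts and 2206, 2071 and 2216 in MI hearts (log2 fold change 3.09, standard error 0.11, adjusted p = 4.3e-05). *Loxl3*, *Lox* and *Mmp14*, a membrane-bound collagenase, rose by 2.61, 3.69 and 2.85. The inhibitors parted: *Timp1* rose by 4.57, from 98.7, 274 and 52.0 to 3245, 1928 and 3095, whereas *Timp4*, the heart-enriched form, fell by 2.09, from 1312, 1442 and 1038 to 437, 313 and 185. In the fibroblast and myofibroblast list, 9 of 21 genes were called higher and 4 lower (median 0.70). Those called higher included the contractile genes *Acta2* (1.90) and *Tagln* (1.81) and the latent TGF-beta binding protein *Ltbp2*, which went from 166, 183 and 164 to 3255, 1933 and 2203 (log2 fold change 3.81). Those called lower were *Scara5*, *Gsn*, *Dpep1* and *Lrrc15*, at -2.05, -1.53, -1.19 and -1.09. The fibroblast lineage markers *Pdgfra* and *Tcf21* had log2 fold changes of 0.70 (adjusted p = 0.0019) and 0.40 (adjusted p = 0.20), and the summed list ranged from 41222 to 47559 normalized counts in sham hearts and 51918 to 65429 in MI hearts.

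Transcripts of recruited monocytes and infarct macrophages rose in 27 of 29 genes tested, with 0 lower (median log2 fold change 2.64). Their summed level was 7325 to 14827 normalized counts in sham hearts and 49752 to 84754 in MI hearts. *Plac8*, a marker of inflammatory monocytes, had 50.5, 56.5 and 44.6 normalized counts in sham hearts and 532, 496 and 554 in MI hearts (log2 fold change 3.36, standard error 0.15, adjusted p = 9.0e-05). *Cd68*, a lysosomal protein of macrophages, rose from 198, 216 and 134 to 1759, 1289 and 1571 (log2 fold change 3.09). *Hmox1*, the heme oxygenase of macrophages that clear heme, rose from 249, 369 and 140 to 6678, 3985 and 5655 (log2 fold change 4.5). *Ccr2*, the receptor that draws monocytes to CCL2, went from 238, 419 and 105 to 1662, 2028 and 3024 (log2 fold change 3.30). The list's genes that were not called were *Cd33* and *Saa3*, with *Saa3* spread widely at 38.2, 397 and 12.7 against 162, 204 and 1552. Resident cardiac macrophage genes did not rise alike, with 2 of 16 called higher and 1 lower (median 0.19). *Stab1* rose by 1.54 and *Igf1* by 1.08, *Mgl2* fell by 1.08, and *Timd4*, *Lyve1* and *Cd163* had log2 fold changes of -0.94, -0.61 and -0.47. *Timd4*, which marks self-renewing resident macrophages, had 55.2, 54.4 and 71.1 normalized counts in sham hearts and 34.0, 33.2 and 25.6 in MI hearts.

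Of 25 neutrophil genes listed, 9 stayed under a mean of 10, the defining granule genes *Camp*, *Ngp*, *Ltf*, *Mpo* and *Elane* and the surface marker *Ly6g* included. Of the 16 tested, 7 were called higher and 1 lower (median 1.72), and the summed list ranged from 1130 to 3237 normalized counts in sham hearts and 3038 to 6197 in MI hearts. *S100a8*, the calprotectin subunit abundant in neutrophils, had 327, 312 and 36.3 normalized counts in sham hearts and 263, 134 and 281 in MI hearts, so the groups overlapped. *Csf3r*, the G-CSF receptor, had 323, 463 and 111 against 1179, 788 and 1270 (log2 fold change 2.05, adjusted p = 0.0090). *G0s2* was called lower (-1.45), a lipolysis inhibitor that heart muscle also expresses. Among dendritic cell and MHC class II genes, 6 of 16 were called higher and 0 lower (median 0.97). *Itgax*, the integrin CD11c, rose from 36.4, 37.0 and 17.6 to 331, 287 and 407 (log2 fold change 3.51), while the class II chain *H2-Aa* had a log2 fold change of 0.90 (adjusted p = 0.052). Of 26 lymphocyte genes, 11 stayed under a mean of 10, all the CD3 chains included, and 3 of the 15 tested were called higher, the B-cell genes *Pax5* and *Ms4a1* among them (log2 fold changes 1.03 and 1.43).

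Signalling genes of inflammation rose broadly. Of 33 chemokines and receptors, 22 were called higher and 0 lower (median 1.82). *Ccl2*, which attracts monocytes, went from 64.0, 55.4 and 35.8 to 1054, 483 and 742 normalized counts (log2 fold change 3.82, standard error 0.31, adjusted p = 0.00016), and *Ccl7*, a ligand of the same receptor, rose by 3.49. *Cxcl5* and *Cxcl2*, ligands for neutrophil receptors, rose by 3.31 and 2.91, while *Cxcl12*, *Ccl11* and *Ccl5* had log2 fold changes of 0.14, -0.27 and 0.52. Of 40 cytokines and receptors, 23 were called higher and 1 lower (median 1.22). *Inhba* and *Inhbb*, the subunits of activins, rose by 2.46 and 2.75, and the 3 TGF-beta genes *Tgfb1*, *Tgfb2* and *Tgfb3* by 1.45, 1.35 and 1.23. *Tgfb2* had 370, 405 and 468 normalized counts in sham hearts and 986, 1116 and 1070 in MI hearts. *Il1b* rose by 2.00 with a wide spread, at 110, 180 and 24.5 against 478, 189 and 358 (adjusted p = 0.041). The cytokine called lower was the lymphocyte growth factor *Il7* (-1.54). Of 27 genes of pattern recognition, inflammasome and necroptosis, 16 were called higher and 0 lower (median 1.35). *Ripk3* and *Mlkl*, the kinase and executor of necroptosis, rose by 2.24 and 1.52. *Ripk3* had 74.0, 58.5 and 48.0 normalized counts against 317, 220 and 327.

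In the complement list 7 of 22 genes were called higher and 1 lower (median 0.40). The receptors rose, *C3ar1* by 2.81 (374, 488 and 283 to 2623, 2313 and 2979 normalized counts) and *C5ar1* by 2.28, whereas the component genes *C3* and *C4b* had log2 fold changes of -0.52 and -0.58 (adjusted p = 0.20 and 0.036). Of 24 coagulation and fibrinolysis genes, 12 were called higher and 1 lower (median 1.03). The urokinase *Plau* and its receptor *Plaur* rose by 2.44 and 2.79. *F3*, tissue factor, was the gene called lower (-1.37), from 373, 313 and 395 to 128, 173 and 120. Of 27 lysosome and cathepsin genes, 15 were called higher and 0 lower (median 1.32). *Ctss*, the cathepsin of antigen-presenting cells, rose from 707, 1018 and 565 to 4769, 4851 and 5630 (log2 fold change 2.77), and *Grn* (progranulin) from 1281, 1380 and 1317 to 4147, 3774 and 4138. Of the 2630 genes called higher, 36 moved with the rRNA-like locus *CT010467.1* at a correlation above 0.8, and of the 2171 called lower, 0 did. Among all genes tested 72 (0.350%) did so, 1 of them in the lysosome and cathepsin list. The correlation was taken over deviations from the group means in all 16 libraries.

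Interferon-stimulated genes parted the MI hearts. Of 36 tested, 8 were called higher and 0 lower (median 0.56), and the median log2 difference from the sham mean was 0.81 in MI heart 1, 0.88 in MI heart 2 and -0.06 in MI heart 3. *Oas3*, an antiviral oligoadenylate synthetase, had 84.6, 47.2 and 87.7 normalized counts in sham hearts and 445, 290 and 211 in MI hearts (log2 fold change 2.08, standard error 0.33, adjusted p = 0.0019). *Mx1*, an antiviral GTPase, had 104, 63.6 and 116 against 594, 398 and 216 (log2 fold change 2.00). *Isg15*, a ubiquitin-like modifier, had 83.4, 58.5 and 147 against 275, 260 and 198 (log2 fold change 1.42). MI heart 3 was the lowest MI heart for all 3 genes. *Ifit3* and *Rsad2*, both strong interferon targets, were not called (0.55 and -0.04), nor was *Irf1* (-0.08).

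Promoters of *Oas3* (chr5:120777610-120777909) and *Isg15* (chr4:156200769-156201068), both on the minus strand of GRCm38.p6 in RefSeq, are shown for the interferon response motif in capitals (TTTC, any 2 bases and TTTC, or GAAA, any 2 bases and GAAA on the opposite strand).
Oas3: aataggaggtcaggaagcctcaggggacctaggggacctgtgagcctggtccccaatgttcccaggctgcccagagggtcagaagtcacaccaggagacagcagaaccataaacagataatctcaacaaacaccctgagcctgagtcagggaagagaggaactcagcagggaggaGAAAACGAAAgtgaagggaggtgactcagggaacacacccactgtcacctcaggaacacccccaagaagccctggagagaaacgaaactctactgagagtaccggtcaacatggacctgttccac
Isg15: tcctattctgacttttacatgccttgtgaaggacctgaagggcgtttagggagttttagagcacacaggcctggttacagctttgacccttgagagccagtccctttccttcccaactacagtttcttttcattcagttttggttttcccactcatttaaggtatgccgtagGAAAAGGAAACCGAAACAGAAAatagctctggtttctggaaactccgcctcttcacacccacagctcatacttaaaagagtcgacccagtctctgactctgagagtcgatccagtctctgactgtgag
*Oas3* holds 1 match, 75 bases before the start, and *Isg15* 3 overlapping matches that begin 78 bases before it. The motif was in 52.9% of 34 windows of 27 interferon-stimulated genes, against 4.35% of the windows of genes called higher, 2.02% of those called lower, 3.17% of those of all genes tested and 3.44% of all windows.

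Outside rRNA-related loci, cell division genes had the highest median of the 44 lists. Of 39 genes of DNA replication and mitosis, 36 were called higher and 0 lower (median log2 fold change 2.85), and all 39 lay above sham in every MI heart. *Cenpe*, a kinetochore motor, had 79.9, 99.6 and 69.1 normalized counts in sham hearts and 903, 849 and 987 in MI hearts (log2 fold change 3.46, standard error 0.16, adjusted p = 9.0e-05). *Top2a*, the topoisomerase of dividing cells, went from 193, 294 and 156 to 2125, 2121 and 2830 (log2 fold change 3.49), and *Mki67*, which encodes Ki-67, from 272, 509 and 246 to 3628, 3335 and 4053 (log2 fold change 3.49). *Mcm3*, part of the replicative helicase, rose from 144, 129 and 120 to 697, 580 and 801 (log2 fold change 2.39). *Tpx2* and *Hmmr*, of the mitotic spindle, rose by 3.84 and 3.44. The genes not called were *Tk1*, *Ccnd1* and *Ccne2*, with log2 fold changes of 0.65, 0.91 and 0.99. The list does not say which cells divided.

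Promoters of *Top2a* (chr11:99024140-99024439) and *Hmmr* (chr11:40733388-40733687), both on the minus strand (RefSeq, GRCm38.p6), are shown for CCAAT boxes and for the cell cycle homology element with the letters TTTGAA. Matches on either strand are in capitals.
Top2a: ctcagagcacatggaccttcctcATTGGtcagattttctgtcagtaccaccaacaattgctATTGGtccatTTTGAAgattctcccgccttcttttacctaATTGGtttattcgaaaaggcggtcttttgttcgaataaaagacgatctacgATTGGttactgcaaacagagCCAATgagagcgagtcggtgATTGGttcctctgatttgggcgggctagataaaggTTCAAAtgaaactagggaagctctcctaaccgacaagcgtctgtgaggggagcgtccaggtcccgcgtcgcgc
Hmmr: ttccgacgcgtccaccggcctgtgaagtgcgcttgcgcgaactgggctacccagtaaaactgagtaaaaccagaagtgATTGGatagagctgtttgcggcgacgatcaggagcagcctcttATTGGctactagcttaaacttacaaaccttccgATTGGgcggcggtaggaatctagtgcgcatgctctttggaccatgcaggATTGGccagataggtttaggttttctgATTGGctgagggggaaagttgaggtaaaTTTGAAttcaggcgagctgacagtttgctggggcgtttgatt
*Top2a* holds 6 CCAAT boxes and 2 TTTGAA elements, and *Hmmr* 5 and 1. CCAAT was in 78.8% of 33 windows of 31 replication and mitosis genes, against 37.4% of the windows of genes called higher, 39.4% of those called lower, 37.1% of those of all genes tested and 37.4% of all windows. TTTGAA was in 45.5%, against 16.7%, 13%, 13.2% and 17.9%.

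Stress response genes did not move together. Of 29 genes of the unfolded protein and integrated stress responses, 11 were called higher and 1 lower (median 0.62). Enzymes of serine and one-carbon metabolism rose, *Psat1* from 57.0, 78.0 and 51.5 to 257, 315 and 447 normalized counts (log2 fold change 2.42) and *Mthfd2* by 1.81, as did the disulfide isomerases *Pdia3*, *Pdia4* and *Pdia6* (1.42, 1.74 and 1.16). The regulators *Atf4* and *Ddit3* and the chaperone *Hspa5* had log2 fold changes of 0.13, -0.59 and 0.20, and *Herpud1* fell by 1.42. Among 20 heat shock proteins and cochaperones, 4 were called lower and 0 higher (median -0.28): the mitochondrial chaperone *Hspa9* (-1.14), the small muscle proteins *Hspb3* (-1.23) and *Hspb8* (-1.06), and *Bag3* (-1.03). *Hspa9* went from 10890, 10623 and 10389 to 5531, 5295 and 3810. Of 37 antioxidant and metal response genes, 11 were called higher and 6 lower (median 0.49). Those called lower were superoxide dismutases and peroxide-removing enzymes, the mitochondrial *Sod2* (-1.52), *Prdx3* (-1.19) and *Prdx5* (-1.20) and also *Sod1*, *Prdx2* and *Gpx4*. Those called higher included genes of the superoxide-generating phagocyte NADPH oxidase, *Cybb* (1.94), *Cyba* (1.53), *Ncf1* (1.72) and *Ncf4* (2.05). *Gpx7* (1.67), *Ftl1* (1.77) and *Hmox1* (4.5), of the same list, were also called higher. *Prdx3* had 4494, 4593 and 4237 normalized counts in sham hearts and 1982, 2156 and 1723 in MI hearts. In the list of cell cycle inhibitors and p53 targets, 6 of 20 were called higher and 2 lower (median 0.69). *Trp53* rose by 1.11, while *Cdkn1a*, its best-known target, had a log2 fold change of 0.10 (adjusted p = 0.81).

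Of 28 endothelial genes, 7 were called higher and 2 lower (median 0.32), and the summed list ranged from 41682 to 44829 normalized counts in sham hearts and 45528 to 50800 in MI hearts. *Apln*, a tip cell peptide, rose from 120, 160 and 201 to 839, 635 and 1055 (log2 fold change 2.39), together with its receptor *Aplnr* (1.97), *Plvap* (1.38), *Angpt2* (1.42) and the leukocyte-capturing selectins *Selp* and *Sele* (3.04 and 2.60). *Rgcc* and the capillary carbonic anhydrase *Car4* fell by 1.46 and 2.20, and *Pecam1*, *Kdr* and *Vwf* had log2 fold changes of 0.25, -0.15 and 0.03. Of 14 pericyte and smooth muscle genes, 2 were called higher (*Mcam* and *Cnn1*) and 3 lower (median -0.56). In the epicardial and mesothelial list, 3 of 12 genes were called higher (median 1.10), with *Aldh1a2*, which makes retinoic acid, at 202, 408 and 151 against 1663, 881 and 1183 normalized counts (log2 fold change 2.37). The mesothelial *Msln* had 32.9, 70.8 and 73.5 in sham hearts and 81.9, 23.6 and 205 in MI hearts, so MI heart 2 was below all sham hearts and MI heart 3 above them. Schwann cell genes had 1 of 7 called higher and 2 lower (median -0.32), fat cell genes 1 of 3 tested called lower (median -0.72) and skeletal muscle genes 1 of 6 tested called higher (median 0.06, and -0.11 when scaled to all reads). Of 6 erythroid genes 0 were called (median 0.17, and -0.0048 when scaled to all reads).

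Against the mean of the sham hearts, the median log2 difference over the genes called higher was 1.72 in MI heart 1, 1.5 in MI heart 2 and 1.93 in MI heart 3, and over the genes called lower it was -1.23, -1.09 and -1.94. MI heart 3 was the most changed heart for 1663 of the 2630 genes called higher and 1858 of the 2171 called lower. MI hearts 1 and 3 had the higher rRNA shares. MI heart 1 lay nearer to MI heart 2 than to MI heart 3 in the falls, and about midway between them in the rises. The part of rRNA in these differences was not tested beyond a fit with the rRNA share as a covariate, which called 1859 genes higher and 863 lower. For fatty acid genes the medians were -1.35, -1.27 and -2.37 in MI hearts 1, 2 and 3, and for sarcomere genes -1.19, -1.06 and -2.27. For collagens they were 2.16, 2.17 and 2.15. The median gene of that list was *Col15a1*, with close values in the MI hearts. Some members differed more, such as *Col8a1* at 5449, 4962 and 6608 normalized counts. Outside rRNA-related loci, the hearts were furthest apart for epicardial and mesothelial genes, at 0.66, 0.11 and 2.19. On the first principal component, which held 74.3% of the variance, the sham hearts lay between -79.6 and -66.8 and the MI hearts at 67.2, 46.2 and 108. Among the sham hearts, heart 2 had the highest value for 1574 (59.8%) of the genes called higher. With MI heart 3 left out, 2331 genes were called higher and 1539 lower, and the counts in 15 of the 88 combinations of list and direction moved by more than 1.5 times. Sarcomere genes called lower went from 26 to 17, neutrophil genes called higher from 7 to 4 and interferon-stimulated genes called higher from 8 to 14. With the rRNA share as a covariate 28 of the 88 moved, the same lists going to 7, 0 and 2.

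**Figure D4:**
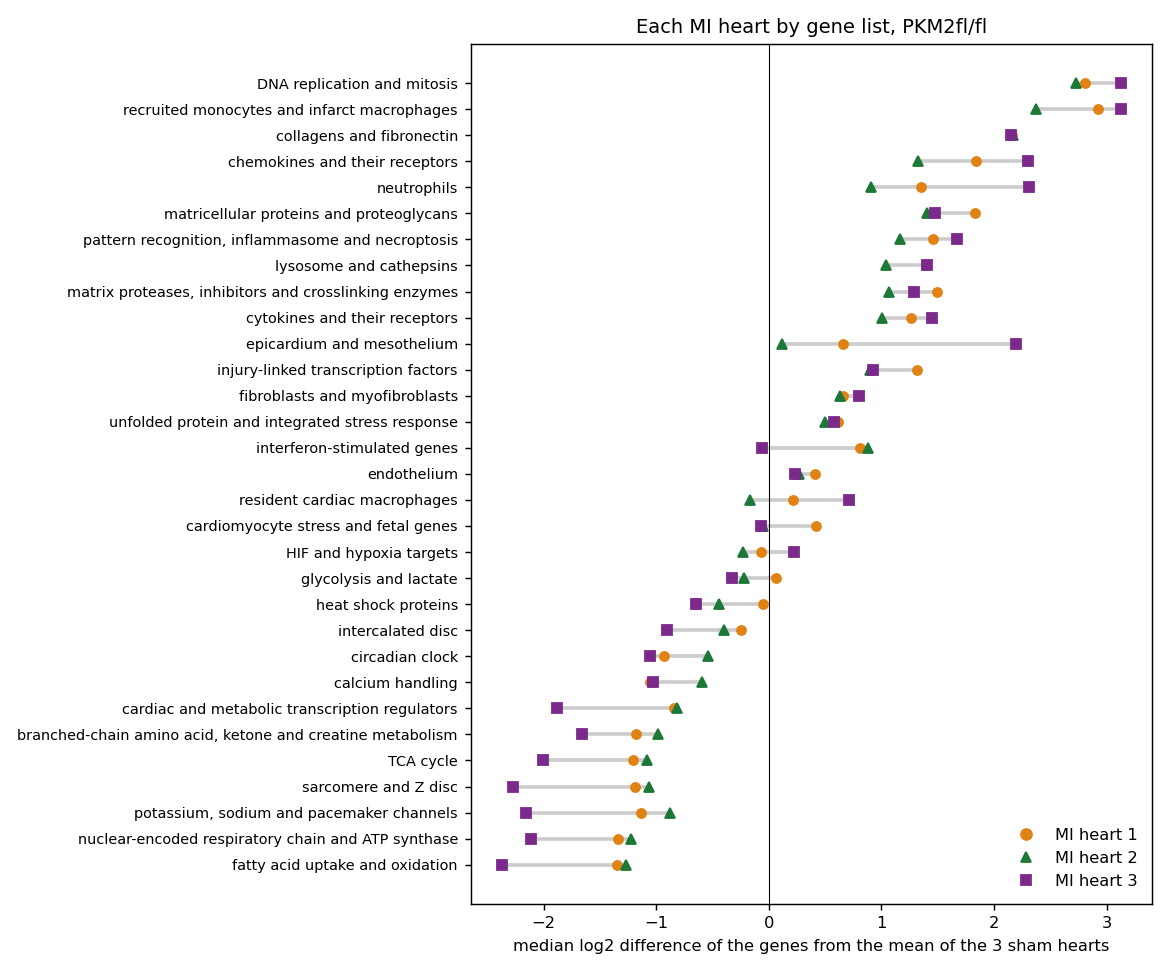
For 31 gene lists, the median log2 difference of the tested genes from the mean of the 3 sham hearts is shown for each MI heart (x axis), with MI heart 1 as an orange circle, 2 as a green triangle and 3 as a purple square. MI heart 3 lies furthest to the left for fatty acid genes (-2.37) and sarcomere genes (-2.27). The list medians of the hearts coincide for collagens (2.15 to 2.17) and spread from 0.11 to 2.19 for epicardial and mesothelial genes.

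The same operation in PKM2-/- hearts, which lack PKM2 in all cells, gave a similar list against their own 3 sham hearts. There 2974 of the same 20568 genes were called higher and 2850 lower (14.5% and 13.9%). Of the 2630 genes called higher in PKM2fl/fl hearts, 2225 (84.6%) were also called higher in PKM2-/- hearts, and of the 2171 called lower, 1851 (85.3%) were also called lower. These are 74.8% and 64.9% of the PKM2-/- calls. No gene passed the test of the difference between the MI effects of the genotypes (limma interaction term over 12 hearts, smallest adjusted p = 0.189), with 1457 genes at an unadjusted p under 0.05. edgeR called 0 genes in that test, and DESeq2 called 13 higher and 15 lower. Without MI heart 3 of PKM2fl/fl mice, limma called 22 and 117.

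List medians were close in most cases. The replication and mitosis list had a median of 2.85 in PKM2fl/fl and 3.13 in PKM2-/- hearts, fatty acid genes -1.62 and -1.88, and the respiratory chain -1.54 and -1.50. Collagens had 2.16 and 1.87. Outside rRNA-related loci, the gap between genotypes was widest for the following lists. Epicardial and mesothelial genes had a median of 1.10 with 3 of 12 called higher in PKM2fl/fl hearts, and 2.91 with 10 called higher in PKM2-/- hearts. Interferon-stimulated genes had a median of 0.56 with 8 of 36 called higher in PKM2fl/fl hearts, and -0.14 with 3 called higher in PKM2-/- hearts. The PKM2fl/fl MI hearts alone spanned 0.11 to 2.19 for the epicardial and mesothelial list and -0.06 to 0.88 for the interferon list. Differences between genotypes were not tested for whole lists. For *Oas1a* the log2 fold change was 1.49 and 0.45, and the difference did not pass (adjusted p = 0.70). *Pkm* had a log2 fold change of 0.31 in PKM2fl/fl and -0.07 in PKM2-/- hearts (adjusted p of the difference 0.77).

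**Figure D5:**
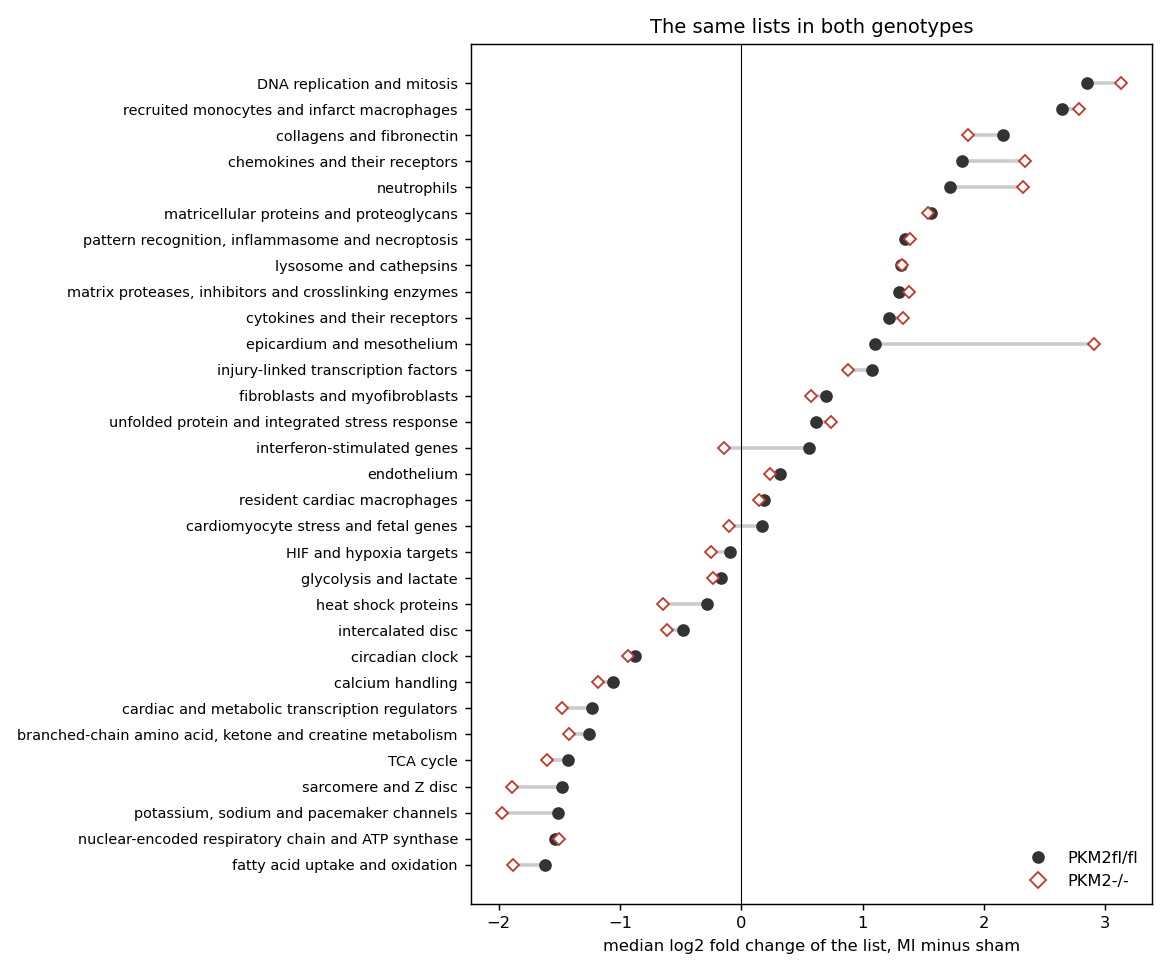
Median log2 fold change (MI minus sham) of 31 gene lists in PKM2fl/fl hearts (filled circles) and PKM2-/- hearts (open diamonds), each against the 3 sham hearts of its own genotype. The symbols lie close for most lists (respiratory chain -1.54 and -1.50) and furthest apart for epicardial and mesothelial genes (1.10 and 2.91).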

How the data were processed

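RNA from the left ventricle was sequenced in 16 libraries of 6 groups, of which the PKM2fl/fl sham and MI groups (3 libraries each) are compared here and the PKM2-/- sham and MI groups are set beside them. Per the study's methods, the authors used PRINSEQ for trimming, HISAT2 for alignment (build mm10), featureCounts for counts per gene and DESeq2 for normalization. Whether counting used strand is not given in the sources used here. The authors deposited a signal per gene, the read count divided by the size factor of the library. The same table holds columns of the authors' own comparisons (fold changes and p-values), which were not used.

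Dividing each library by its smallest step gave whole read counts for 100% of the values (tolerance 0.05). Genes whose mean over the 6 libraries reached 10 normalized counts were tested with limma 3.58.1 (R 4.3.3) on log2 of the value plus a pseudocount of 1, so fold changes of low genes are understated. A gene was called where it changed 2-fold or more and the Benjamini-Hochberg adjusted p was below 0.05. Fits were tested on simulated counts with the same dispersion for all genes and no set difference in rRNA share, unlike these libraries. At an adjusted p below 0.05, limma recovered 52% of simulated 2-fold and 100% of 4-fold changes, with 3 false calls. edgeR 4.0.16 and DESeq2 1.42.0 on the recovered counts, other scalings, pseudocounts, filters, an rRNA covariate, a replicate block and fits leaving out each library were alternatives. Reads per library set the precision of low genes. With 3 mice a group, limma drew the variance of each gene toward that of genes at a similar level. Its p-values therefore mix the spread between these mice with that of other genes.

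Members and lists were chosen with earlier results of these data known. The text names, for each list, up to 5 called genes with the smallest p-values, the 20 genes with the largest change in each direction among called genes with no overlap and at least 100 normalized counts in the higher group, and a few control genes. The exceptions of lists, the other textbook genes named, the gene families and the promoters and motifs were chosen after their values were seen. Promoter windows came from RefSeq (GRCm38.p6). Of the genes tested, 12847 of 20568 (62.5%) had at least 1 window, with 16316 windows in all. Gene overlaps were read from the GENCODE vM39 annotation by gene name. The values of a few genes are not reported here.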

Additional observations from a re-analysis of the deposited data

Results flagged for a closer look

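*Rny3*, a gene for a small non-coding Y RNA, moved in opposite directions in the genotypes. In PKM2fl/fl hearts it had 991, 762 and 1538 normalized counts in sham hearts and 4297, 2503 and 5087 in MI hearts (log2 fold change 1.85, limma adjusted p = 0.0026). In PKM2-/- hearts it had 1228, 1046 and 2142 in sham hearts and 303, 699 and 537 in MI hearts (log2 fold change -1.53, limma adjusted p = 0.0024). All hearts of each genotype moved the same way, without overlap between sham and MI. The test of the difference itself did not pass (limma interaction, adjusted p = 0.189).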

How the results depend on the processing

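The counts of 2630 genes called higher and 2171 called lower stayed within 1.5 times under the other scalings, tools and filters. Without a fold threshold they were 4770 and 4524, and a test against a 2-fold change itself called 836 and 38. With the rRNA share as a covariate, 863 genes were called lower, and the cause was not tested. Leaving out each library in turn gave 2331 to 2764 genes called higher and 1539 to 2507 called lower, the lowest of both without MI heart 3. Of the called genes, 0 turned direction in any alternative 3213 of 4801 were called in all 6 fits that left out a library and 713 in all 23 alternatives. The counts of called genes by list and direction (88 in all) moved by more than 1.5 times in 57 in the test against a 2-fold change itself, in 28 without a fold threshold or with the rRNA covariate, in 11 when scaled to all reads, in 15 without MI heart 3 or when scaled to reads outside rRNA-related loci, and in 4 to 9 without any other single heart. The difference between genotypes gave 13 higher and 15 lower genes by DESeq2, and 0 to 22 higher and 0 to 117 lower with 1 library left out (22 and 117 without PKM2fl/fl MI heart 3, 2 higher without PKM2fl/fl sham heart 3, 1 lower without PKM2-/- MI heart 1). Of the named genes, 136 were no longer called in the test against a 2-fold change itself, 49 with the rRNA covariate, 23 without MI heart 3, 20 when scaled to reads outside rRNA-related loci and 1 to 16 without any other single heart. The log2 fold change of Mylpf turned to 0.036 with the rRNA covariate. The log2 fold change of mt-Rnr2, a mitochondrial rRNA, turned to 0.092 when scaled to reads outside rRNA-related loci and ranged from -0.373 to 0.131 with 1 library left out. The cause was not tested.

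Sham and MI hearts with the same number did not deviate together (correlations of -0.0648 to 0.0239), so the numbers pair no animals. With the replicate block, 2560 genes were called higher and 2134 lower, of which 2517 and 2093 were also called without it. For the difference between genotypes, the block called 0 genes, as did the fit without it.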

Other observations

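Several gene families outside the lists moved as groups in PKM2fl/fl hearts. They were picked after their values were seen and are given as descriptions. Of 52 replication-dependent histone genes tested, 44 were called higher and 0 lower (median log2 fold change 3.19), and in PKM2-/- hearts 47 were called higher (median 3.38). These genes are near-identical copies, so the split of reads among them is uncertain. All 13 protein-coding genes of the mitochondrial genome had a negative log2 fold change (median -1.61), with 7 called lower in PKM2fl/fl and 11 in PKM2-/- hearts. Of 76 mitochondrial ribosomal protein genes, 75 had a negative log2 fold change and 19 were called lower (median -0.79). Of 81 cytosolic ribosomal protein genes, 1 was called (median 0.14), the muscle form *Rpl3l*, which had 3152, 4018 and 4154 normalized counts in sham hearts and 1142, 1407 and 299.97 in MI hearts (log2 fold change -2.25). Of 26 integrin genes, 14 were called higher and 2 lower (median 1.24).

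Of 19 genes outside rRNA-related loci with a sham mean of at least 100000 normalized counts, 16 were below sham in every MI heart, and limma called 8 of them lower, edgeR 11 and DESeq2 14. *mt-Co1*, a subunit of complex IV, had 1336720, 1254810 and 1382590 normalized counts in sham hearts and 697644, 706369 and 475040 in MI hearts. Its log2 fold change was -1.10 (limma standard error 1.07, limma adjusted p = 0.43, DESeq2 adjusted p = 3.6e-08).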
